A study of Mus musculus with 24 samples.

Results

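A set of 10 enzymes of amino acid metabolism was followed across all 24 RNA-seq libraries of cultured mouse lung adenocarcinoma cells: Asns, Chac1, Cth, Cbs, Pycr1, Aldh18a1, Bcat1, Bcat2, Gpt2 and Got1. They were taken by gene symbol from a count table of 38937 symbols for the shRNA samples and another of 39310 symbols for the siRNA samples. All 10 were present in both tables and all 10 passed the filter on low counts, among 14697 genes tested for the shRNA samples and 18138 for the siRNA samples. The cells had been sorted from lung tumours as GFP-positive and CD45-negative and were then cultured. The libraries formed 6 groups of 4. A/A cells, whose eIF2α has alanine at the serine that is phosphorylated in the integrated stress response, received siRNA against Chchd10 (A/A siChchd10) or control siRNA (A/A siControl). S/S cells, which carry the serine, received the same reagents (S/S siChchd10 and S/S siControl). In the other table S/S cells carried an shRNA against Atf4 (S/S shAtf4) or a scramble shRNA (S/S shControl). The genotype tag of the A/A siControl samples reads WT, as it does for the S/S siControl samples, so their genotype was taken from the sample titles. The labels do not say how many tumours or clones the cells came from, nor whether the 4 libraries of a group were separate cultures, so p-values measure only the spread between these libraries, which may be technical.

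The integrated stress response slows general translation through phosphorylated eIF2α while the transcription factor ATF4 is translated, and ATF4 is known to raise transcription of genes for amino acid synthesis and uptake. Asns makes asparagine from aspartate with nitrogen from glutamine. Cbs joins homocysteine and serine into cystathionine, Cth splits cystathionine to release cysteine, and Chac1 breaks down glutathione, the main cysteine-containing peptide of the cell. Aldh18a1 carries out the first steps from glutamate to proline and Pycr1 the last. Bcat1, in the cytosol, and Bcat2, in mitochondria, move the amino group of leucine, isoleucine and valine to 2-oxoglutarate. Gpt2 interconverts alanine and pyruvate in mitochondria, and Got1 interconverts aspartate and oxaloacetate in the cytosol. Asns, Chac1, Cth, Pycr1, Aldh18a1 and Gpt2 are among the genes described as ATF4 targets.

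ATF4 binds with a C/EBP family partner at C/EBP-ATF response elements, whose core can be written TGATGNAA. RefSeq promoter entries of GRCm38.p6, from 250 bases before to 50 after a gene's start, were searched on both strands for this core and for TGACGT, part of the cyclic AMP response element. Of the 10 members 9 had an entry, all but Cth, and of the 11 entries of those 9 members 4, from 4 genes, held TGATGNAA, against 3.97% of all 32851 promoter entries. TGACGT was found in 1 of the 11 entries, that of Aldh18a1, 19 bases after its start on the opposite strand, against 7.51% of all entries, and it did not overlap TGATGNAA there. In Asns the core TGATGAAA began 23 bases before the start on the gene's own strand, and in Pycr1 TGATGCAA began 103 bases before the start on the gene's own strand. TGATGCAA lay on the opposite strand in Chac1, 193 bases before the start, and in Got1, 102 bases before. A match is a description of these letters and not evidence of binding. The 250 bases before the start of these 4 genes are printed because they hold the only matches to the ATF4 core among the members, with the match in capitals, read in the direction of the gene, so that an opposite-strand match appears as its reverse complement.
Asns, chr6:7693210-7693459, minus strand, GRCm38.p6: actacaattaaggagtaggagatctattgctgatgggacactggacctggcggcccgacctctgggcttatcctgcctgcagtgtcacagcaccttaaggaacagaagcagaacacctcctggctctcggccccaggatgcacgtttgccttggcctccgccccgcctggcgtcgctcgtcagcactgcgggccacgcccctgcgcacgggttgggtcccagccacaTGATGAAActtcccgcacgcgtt
Chac1, chr2:119350992-119351241, plus strand, GRCm38.p6: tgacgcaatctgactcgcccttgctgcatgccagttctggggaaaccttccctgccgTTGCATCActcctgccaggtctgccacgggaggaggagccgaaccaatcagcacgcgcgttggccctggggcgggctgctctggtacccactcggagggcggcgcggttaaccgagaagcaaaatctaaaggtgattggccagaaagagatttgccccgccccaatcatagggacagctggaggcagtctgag
Pycr1, chr11:120643749-120643998, minus strand, GRCm38.p6: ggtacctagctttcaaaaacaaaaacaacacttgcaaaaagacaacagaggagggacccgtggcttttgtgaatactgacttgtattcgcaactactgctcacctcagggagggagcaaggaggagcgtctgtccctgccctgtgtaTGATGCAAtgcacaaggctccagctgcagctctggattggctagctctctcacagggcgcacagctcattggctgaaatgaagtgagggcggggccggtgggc
Got1, chr19:43524606-43524855, minus strand, GRCm38.p6: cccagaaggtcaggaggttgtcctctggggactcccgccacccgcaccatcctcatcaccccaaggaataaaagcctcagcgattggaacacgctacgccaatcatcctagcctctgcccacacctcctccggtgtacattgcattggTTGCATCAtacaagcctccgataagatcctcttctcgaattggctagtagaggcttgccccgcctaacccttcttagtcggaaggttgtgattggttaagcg

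Total counts per library, in units of 1e+06, were 14.1 to 70.9 for the shRNA samples and 42.9 to 75.4 for the siRNA samples. The targeted genes followed their labels: Chchd10 stood at 20.7% of the siControl level in A/A siChchd10 cells and at 14.8% in S/S siChchd10 cells, and Atf4 at 39.9% of the shControl level in shAtf4 cells, with no overlap between libraries in any of these. Summed epithelial and adenocarcinoma markers lay between 4040 and 6730 counts per 1e+06 counts (CPM) in every library, led by Krt8 and Cdh1, whereas the leukocyte list summed to at most 5.02 CPM, the endothelial list to at most 3.10 and the fibroblast list to at most 18.4. The lung lineage marker Nkx2-1 was at 0 in every library of the shRNA table, and averaged 131 CPM in A/A siChchd10, 115 in A/A siControl, 35.1 in S/S siChchd10 and 37.4 in S/S siControl libraries. Other markers of that list were uneven. Napsa averaged at most 0.22 CPM in any group, and Sftpc 3.80 in A/A siChchd10 and at most 0.0912 elsewhere. Sftpb averaged 1180 CPM in A/A siChchd10 and 290 in A/A siControl libraries. Among S/S groups its highest mean was 8.14 CPM, in siChchd10 libraries. Epcam averaged 1.44 to 2.57 CPM in the A/A groups and 8.93 to 36.7 in the S/S groups. Replicate 4 of both shRNA groups stood apart on the first principal component (36.1 in shAtf4 and 46.0 in shControl, against -20.6 to -5.47 in the other 6 libraries). Replicate 1 of A/A siControl lay nearest to the S/S side of its table, at 36.6 against 59.2 to 66.9 in the other A/A siControl libraries, and held 7 RNAs typical of S/S cells at 6.39% of the level in S/S siControl cells, the others holding 0.170% to 0.947%.

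In RefSeq's GRCm38.p6 coordinates, counted from 1, all 10 are protein-coding genes. Asns lies on chromosome 6 from 7675165 to 7693209, Chac1 on chromosome 2 from 119351242 to 119354326, Cth on chromosome 3 from 157894248 to 157925081, Cbs on chromosome 17 from 31612623 to 31637233 and Pycr1 on chromosome 11 from 120638998 to 120643748. Aldh18a1 lies on chromosome 19 from 40550257 to 40588463, Bcat1 on chromosome 6 from 144993835 to 145076157, Bcat2 on chromosome 7 from 45568967 to 45589710, Gpt2 on chromosome 8 from 85492576 to 85528902 and Got1 on chromosome 19 from 43499752 to 43524605. Per kilobase of exon annotated by GENCODE, Asns had the highest mean of the members in all 6 groups and Cbs the lowest. In A/A siChchd10 cells the Cbs libraries (0.799 to 1.07 CPM per kilobase) overlapped those of Bcat1 (0.935 to 1.04). In S/S siControl cells the mean level per kilobase was 175 CPM for Asns, 76.2 for Aldh18a1, 73.2 for Got1, 48.3 for Cth, 42.7 for Gpt2, 30.7 for Chac1, 26.0 for Bcat2, 15.6 for Pycr1, 5.91 for Bcat1 and 1.81 for Cbs. The A/A siControl cells kept Asns first, at 99.0 CPM per kilobase, but Cth stood below Bcat2 there, with 15.4 to 17.2 CPM per kilobase against 19.97 to 22.5. The scatter between libraries differed between the tables: the coefficient of variation of a member within a group was 10.6% to 62.7% among the shRNA libraries and up to 20.3% among the siRNA libraries.

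A/A cells had less mRNA than S/S cells for 9 of the 10 enzymes under control siRNA, and more only of Gpt2. Tested with edgeR's quasi-likelihood test and Benjamini-Hochberg adjustment over all genes, with a call at an adjusted p under 0.05, 9 members fell and 1 rose. This comparison called 70.2% of all genes tested, 34.7% of them lower in A/A cells and 35.6% higher, so 9 of 10 members lower stands beside 34.7% of all genes. The median log2 fold change of the members was -0.66, against 0.01 for all genes tested. Atf4 itself measured 164 ± 14.9 CPM in A/A siControl and 519 ± 33.8 CPM in S/S siControl cells (SD, n = 4 each), and its part in the enzyme differences was not tested. The A/A and S/S libraries separated on the first principal component of the 1000 genes used for it, which holds 92.9% of their variance. Allele and cell population change together in these libraries. The allele and other differences between the A/A and S/S cells therefore cannot be told apart.

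Asns, the asparagine synthetase, had 223, 209, 209.8 and 214 CPM in the A/A siControl libraries, against 379.9, 399.8, 359 and 378 CPM in the S/S siControl libraries. Every A/A library lay far below every S/S library. The log2 fold change was -0.83 (SE 0.0446, adjusted p = 8.15e-16), which leaves 56.4% of the S/S level.

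The cysteine genes showed larger differences. Cth, which releases cysteine, had 31.1, 28.0, 29.1 and 27.9 CPM in A/A siControl libraries, against 84.9, 101, 80.5 and 84.1 CPM in S/S siControl libraries. Chac1, which consumes glutathione, had 16.6, 13.7, 13.5 and 12.2 CPM in A/A siControl libraries, against 45.7, 65.2, 42.5 and 47.7 CPM in S/S siControl libraries, where replicate 2 was the highest. Neither gene's groups overlapped. On the log2 scale Cth fell by 1.59, with an SE of 0.0682 and an adjusted p of 6.03e-16, and Chac1 fell by 1.84 (SE 0.130, adjusted p = 7.97e-09). Cbs, the step before Cth, averaged 6.22 ± 0.273 CPM in A/A siControl and 11.4 ± 0.505 CPM in S/S siControl cells (SD, n = 4 each) and fell by 0.87 (SE 0.0882, adjusted p = 8.34e-10).

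Both proline enzymes were lower, by less. Pycr1 had 43.8, 43.8, 45.0 and 45.4 CPM in A/A siControl libraries, against 55.1, 64.3, 54.8 and 60.8 CPM in S/S siControl libraries, with no overlap. It fell by 0.40 (SE 0.0501, adjusted p = 4.00e-08), to 75.7% of the S/S level. Aldh18a1, the entry to the pathway, averaged 191 ± 3.06 CPM in A/A siControl and 269 ± 18.2 CPM in S/S siControl cells (SD, n = 4 each) and fell by 0.49 (SE 0.0456, adjusted p = 1.23e-10).

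The branched-chain aminotransferases differed in size of change. Bcat1, the cytosolic form, had 13.4, 10.1, 9.58 and 9.68 CPM in A/A siControl libraries, against 49.4, 49.4, 48.0 and 50.8 CPM in S/S siControl libraries. All A/A libraries were low, and the highest of them was replicate 1, the library nearest to the S/S side. The log2 fold change of -2.20 (SE 0.0830, adjusted p = 4.22e-17) was the largest in size among the members, and without that library it was -2.33. Bcat2, the mitochondrial form, averaged 52.6 ± 2.62 CPM in A/A siControl and 64.8 ± 3.04 CPM in S/S siControl cells (SD, n = 4 each) and fell by 0.30 (SE 0.0433, adjusted p = 5.27e-07).

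Of the other transaminases, Gpt2 went the other way. It had 176, 179, 183 and 176 CPM in A/A siControl libraries, against 155, 169.9, 144 and 152 CPM in S/S siControl libraries, so that the lowest A/A library was above the highest S/S library. Its log2 fold change was 0.20 (SE 0.0415, adjusted p = 0.000112). Got1, which handles aspartate, averaged 133 ± 2.27 CPM in A/A siControl and 151 ± 5.77 CPM in S/S siControl cells (SD, n = 4 each) and fell by 0.19 (SE 0.0393, adjusted p = 0.000126).

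**Figure D1:**
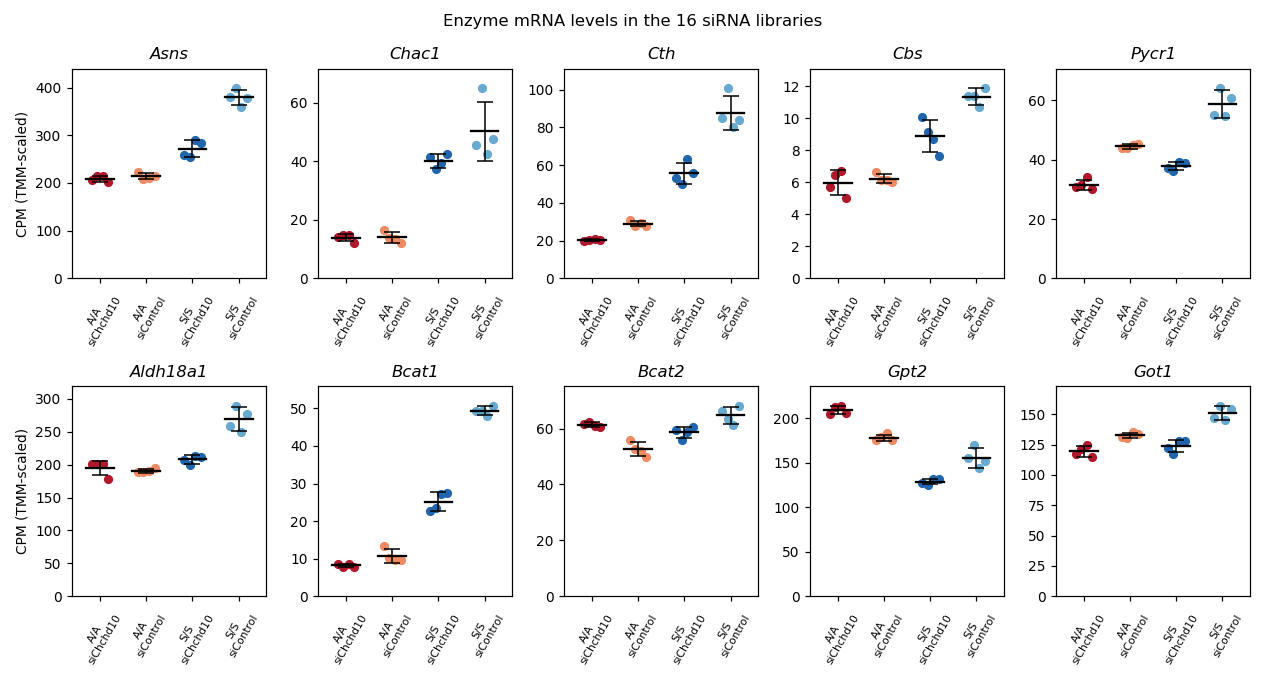
Levels of the 10 enzymes in the 16 siRNA libraries, in CPM after TMM scaling on axes that start at 0; points are libraries, horizontal lines the mean and bars the SD of 4 libraries. Bcat1, Chac1 and Cth stand far lower in both A/A groups than in both S/S groups, while Gpt2 is highest in A/A siChchd10.

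After Chchd10 knockdown in S/S cells nearly the whole set was lower. CHCHD10 is a small protein of the mitochondrial intermembrane space. Of the 10 members 9 fell and 0 rose. Of all genes tested 28.0% were called in this comparison, 13.0% lower and 15.0% higher in siChchd10 cells. The members' median log2 fold change was -0.36, against 0.00 for all genes tested. Atf4 mRNA also fell, by 0.21 (SE 0.0548, adjusted p = 0.00495), to 86.6% of the control level, with overlapping libraries. Its part in the enzyme changes was not tested.

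Bcat1 changed most: it had 22.6, 23.4, 27.2 and 27.5 CPM in S/S siChchd10 libraries, against the 48.0 to 50.8 CPM of S/S siControl libraries, and fell by 0.97 (SE 0.0770, adjusted p = 1.03e-09), to 51.0% of the control. Cth had 53.4, 50.2, 63.4 and 56.0 CPM in S/S siChchd10 libraries, against 80.5 to 101 CPM in S/S siControl libraries, and fell by 0.65 (SE 0.0655, adjusted p = 4.96e-08). Pycr1 had 37.2, 36.1, 39.3 and 38.9 CPM in S/S siChchd10 libraries, against 54.8 to 64.3 CPM in S/S siControl libraries, and fell by 0.63 (SE 0.0505, adjusted p = 1.06e-10). None of these 3 genes had overlapping groups, and neither did Asns, which had 258, 255, 290.4 and 283 CPM in S/S siChchd10 libraries, against 359 to 399.8 CPM in S/S siControl libraries. Asns fell by 0.48 (SE 0.0443, adjusted p = 1.65e-09).

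A further 5 members fell by 0.14 to 0.37 on the log2 scale: Aldh18a1 by 0.37, Cbs by 0.35, Got1 by 0.28, Gpt2 by 0.27 and Bcat2 by 0.14. The Bcat2 call (adjusted p = 0.0124) was lost without S/S siControl replicate 4 (adjusted p = 0.0543) or without S/S siChchd10 replicate 2 (adjusted p = 0.0581). Chac1 was the member that did not pass. It had 41.3, 37.2, 39.3 and 42.7 CPM in S/S siChchd10 libraries, against 45.7, 65.2, 42.5 and 47.7 CPM in S/S siControl libraries, and the groups overlapped by a single pair of libraries. Its log2 fold change was -0.33 (95% interval -0.56 to -0.09, adjusted p = 0.0597), and over the alternatives its adjusted p ran from 0.0243 to 0.149. It passed without S/S siControl replicate 3 (adjusted p = 0.0243) and with DESeq2 (adjusted p = 0.0480), while without S/S siControl replicate 2, the highest library, the log2 fold change was -0.17.

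The same siRNA in A/A cells gave a divided response: Bcat2 and Gpt2 rose, Cth, Pycr1, Bcat1 and Got1 fell, and Asns, Chac1, Cbs and Aldh18a1 did not pass. Of all genes tested 53.7% were called in A/A cells, 26.5% higher and 27.2% lower in siChchd10 cells, so 6 called members of 10 lies near the background. The members' median log2 fold change was -0.05, against -0.01 for all genes tested. Atf4 mRNA fell by 0.38 (SE 0.056, adjusted p = 2.51e-06), to 76.9% of the control level, without overlap between libraries. Its part in the enzyme changes of A/A cells was not tested.

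Pycr1 had 30.8, 31.3, 34.1 and 30.2 CPM in A/A siChchd10 libraries, against 43.8, 43.8, 45.0 and 45.4 CPM in A/A siControl libraries, and fell by 0.49 (SE 0.0512, adjusted p = 3.91e-09). Cth had 19.5, 20.4, 21.1 and 20.5 CPM in A/A siChchd10 libraries, against 27.9 to 31.1 CPM in A/A siControl libraries, and fell by 0.51 (SE 0.0714, adjusted p = 2.15e-06). For both genes the siChchd10 libraries formed a tight group below all control libraries. Bcat1 had 8.50, 7.82, 8.70 and 7.88 CPM in A/A siChchd10 libraries, against 9.58 to 13.4 CPM in A/A siControl libraries, and its log2 fold change of -0.39 (SE 0.0910, adjusted p = 0.000989) was -0.24 (adjusted p = 0.00679) without A/A siControl replicate 1. Got1 averaged 119 ± 4.42 CPM in A/A siChchd10 and 133 ± 2.27 CPM in A/A siControl cells (SD, n = 4 each) and fell by 0.15 (SE 0.0394, adjusted p = 0.00179).

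The mitochondrial transaminases Gpt2 and Bcat2 were higher. Gpt2 had 205, 213, 214 and 206 CPM in A/A siChchd10 libraries, against 176 to 183 CPM in A/A siControl libraries, and rose by 0.23 (SE 0.0413, adjusted p = 2.58e-05). Bcat2 had 61.7, 62.3, 60.9 and 60.4 CPM in A/A siChchd10 libraries, against 56.0, 52.8, 51.9 and 49.7 CPM in A/A siControl libraries, and rose by 0.22 (SE 0.0432, adjusted p = 9.25e-05). Neither gene's groups overlapped. Asns measured 207, 214, 215 and 202 CPM in A/A siChchd10 libraries, inside and around the 209 to 223 CPM of A/A siControl libraries, with a log2 fold change of -0.03 (95% interval -0.12 to 0.05). The corresponding value was -0.02 for Chac1 (95% interval -0.29 to 0.25), -0.07 for Cbs (-0.25 to 0.11) and 0.03 for Aldh18a1 (-0.06 to 0.12).

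The difference between the siChchd10 effects in the 2 genotypes was tested as an interaction, A/A minus S/S. It was positive for all 10 members and passed for 5, all toward a less negative or more positive effect in A/A cells, while 0 passed in the other direction. Of all genes tested 35.6% were called, 16.7% with a more positive effect in A/A cells and 18.9% with a more negative one. The members' median difference was 0.34, against -0.01 for all genes. The genotypes did not start from the same Chchd10 level: A/A siControl cells held 21% of the S/S siControl level. Chchd10 averaged 8.93 CPM in A/A siControl and 1.83 CPM in A/A siChchd10 cells. In S/S cells it averaged 42.6 CPM with siControl and 6.30 CPM with siChchd10. The part of this starting difference in the interactions was not tested.

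Bcat1 had the largest difference, 0.59 (SE 0.119, adjusted p = 0.000470), with a log2 fold change of -0.39 in A/A cells and -0.97 in S/S cells, and the difference was 0.73 without A/A siControl replicate 1. Gpt2 differed by 0.50 (SE 0.0587, adjusted p = 1.51e-07), since it rose by 0.23 in A/A cells and fell by 0.27 in S/S cells. Bcat2 likewise rose by 0.22 in A/A cells and fell by 0.14 in S/S cells, a difference of 0.36 (SE 0.0610, adjusted p = 3.19e-05). These are the only members with calls of opposite sign in the 2 genotypes. Asns differed by 0.45 (SE 0.0627, adjusted p = 2.55e-06) and Aldh18a1 by 0.40 (SE 0.0645, adjusted p = 1.97e-05).

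The interaction did not pass for Cth (0.14, 95% interval -0.05 to 0.33), Pycr1 (0.14, 0.00 to 0.28), Chac1 (0.31, -0.05 to 0.67), Cbs (0.28, 0.03 to 0.53) or Got1 (0.13, 0.02 to 0.24), with adjusted p from 0.0661 for Got1 to 0.274 for Cth. Those intervals do not show that the effects were alike. Without S/S siControl replicate 2 the difference was 0.17 for Chac1 and 0.08 for Cth. Cth fell by 0.51 in A/A and 0.65 in S/S cells, and Pycr1 by 0.49 in A/A and 0.63 in S/S cells.

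**Figure D2:**
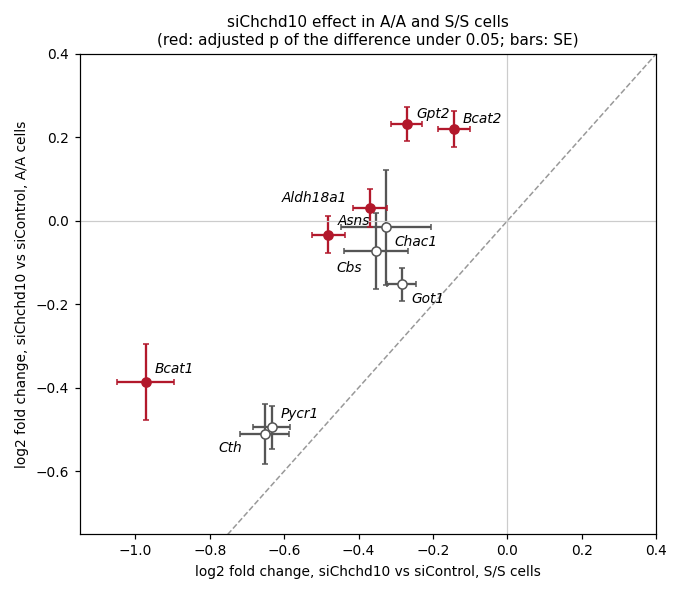
The log2 fold change under siChchd10 in A/A cells (vertical axis) against that in S/S cells (horizontal axis) for the 10 enzymes, with SE bars; the dashed line marks equal effects and red points those whose difference passed the test. All 10 points lie above the line, with Gpt2 and Bcat2 above 0 in A/A cells and below 0 in S/S cells.

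After Chchd10 knockdown the genotypes stood closer for Asns, Aldh18a1, Bcat1 and Bcat2 and further apart for Gpt2, which restates the interaction. In A/A siChchd10 against S/S siChchd10 cells 6 members fell and 1 rose, where 70.5% of all genes were called, 35.8% lower and 34.7% higher. This comparison uses the siChchd10 libraries of the previous ones and is not independent of them. Bcat1 averaged 8.23 ± 0.442 CPM in A/A siChchd10 and 25.2 ± 2.50 CPM in S/S siChchd10 cells (SD, n = 4 each), a log2 fold change of -1.62 (SE 0.0859, adjusted p = 2.73e-14). Chac1 fell by 1.53, Cth by 1.45, Cbs by 0.58, Asns by 0.38 and Pycr1 by 0.26. Gpt2 rose by 0.70 (SE 0.0416, adjusted p = 5.96e-15), with 205 to 214 CPM in A/A siChchd10 libraries, against 126 to 132 CPM in S/S siChchd10 libraries. Aldh18a1 (log2 fold change -0.09), Bcat2 (0.06) and Got1 (-0.05) had overlapping libraries and did not pass.

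The order of the 4 siRNA groups differed by gene. Asns, Chac1, Cth, Cbs and Bcat1 shared an order in which both S/S groups stood above both A/A groups and siChchd10 below siControl within each genotype, with overlapping neighbours at the A/A end for Asns, Chac1 and Cbs and also between the S/S groups for Chac1. For Cth and Bcat1 no neighbouring groups overlapped. In Pycr1 and Got1, A/A siControl stood between the S/S groups and A/A siChchd10 was lowest, and the lowest pair overlapped for Got1. Every neighbouring pair overlapped for Bcat2, and Gpt2 ran from A/A siChchd10 at the top to S/S siChchd10 at the bottom with no overlap between neighbours.

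**Figure D3:**
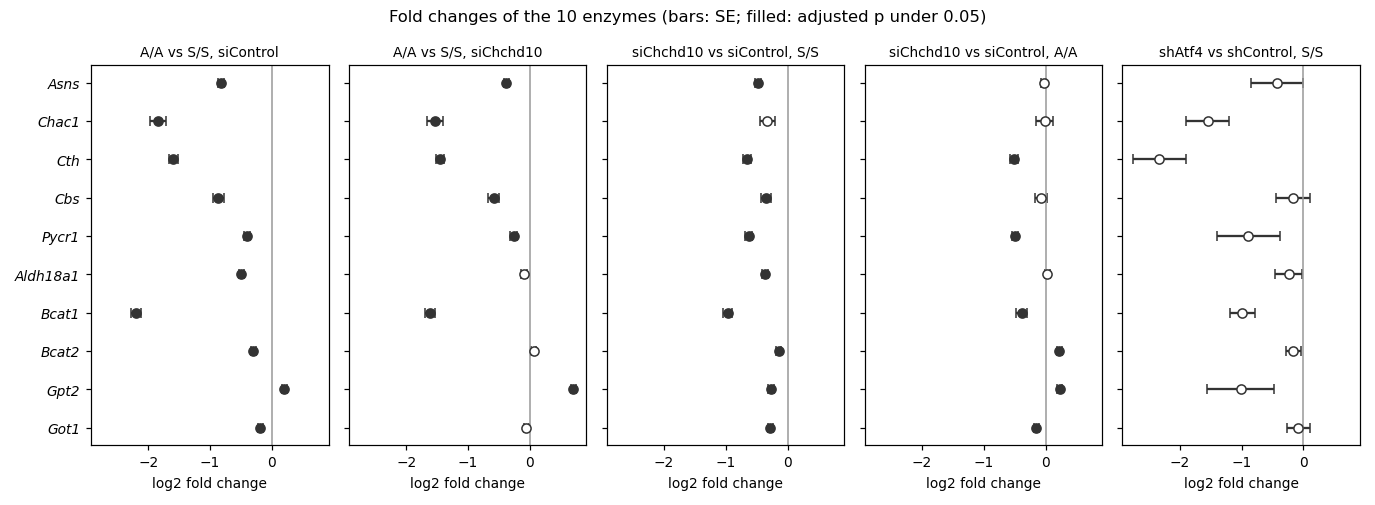
Log2 fold changes of the 10 enzymes in the 5 comparisons of 2 groups, with SE bars; filled points passed an adjusted p under 0.05 in the fit without the replicate block. The values run from -2.33 for Cth under shAtf4 to 0.70 for Gpt2 in A/A against S/S siChchd10 cells, and the shAtf4 panel has the widest bars.

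In S/S cells the mean levels of all 10 enzymes were lower with shAtf4 than with shControl, but the replicates of this table were far apart. These groups also differed in the Y-linked gene Ddx3y, given below, so the knockdown and another difference between them cannot be told apart. With 1 term per group, 0 members passed in edgeR's quasi-likelihood test, 3 had an unadjusted p under 0.05, and DESeq2 called those 3. Of all genes tested only 0.538% were called, 0.150% higher and 0.388% lower in shAtf4 cells. Libraries with the same replicate number deviated together from their group means (correlations of 0.447 to 0.899 over the 4 pairs, against -0.718 to 0.516 over the 12 pairs with different numbers), and with the number as a block 7 members fell and 0 rose, where 20.2% of all genes were called. Those 7 were Asns, Chac1, Cth, Pycr1, Aldh18a1, Bcat1 and Gpt2. The members' median log2 fold change was -0.66 without the block and -0.65 with it, against 0.00 for all genes in both fits.

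Cth had 26.6, 32.4, 35.7 and 19.9 CPM in shAtf4 libraries 1 to 4, against 84.0, 264, 159.9 and 66.4 CPM in shControl libraries 1 to 4. Every shAtf4 library was below every control, and the controls were widely scattered, with replicate 2 the highest. The log2 fold change was -2.33 (SE 0.424, adjusted p = 0.0598), and with the block -2.16 (adjusted p = 0.0216). The shAtf4 library of a pair held between 12.3% and 31.6% of its control's Cth level.

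Chac1 had 19.0, 14.8, 25.3 and 11.2 CPM in shAtf4 libraries, against 38.3, 65.2, 73.6 and 27.8 CPM in shControl libraries. Bcat1 had 82.5, 90.02, 120.4 and 64.4 CPM in shAtf4 libraries, against 134, 197, 209 and 169 CPM in shControl libraries. Neither gene's groups overlapped. For Chac1 the log2 fold change was -1.55 (SE 0.349, adjusted p = 0.111, with the block 0.00159), and for Bcat1 -0.99 (SE 0.202, adjusted p = 0.0816, with the block 0.000517).

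Gpt2 had 65.9, 76.1, 83.3 and 17.3 CPM in shAtf4 libraries, against 112, 174, 163 and 37.9 CPM in shControl libraries. Replicate 4 was by far the lowest in both groups, so the groups overlapped, yet each shAtf4 library held 43.7% to 58.6% of the level in its same-numbered control. The log2 fold change was -1.01 without the block (SE 0.539, adjusted p = 0.575) and -1.02 with it (adjusted p = 2.52e-07). Pycr1 had a log2 fold change of -0.89 (adjusted p = 0.610, with the block 0.00223), Asns of -0.43 (0.799, with the block 0.000946) and Aldh18a1 of -0.24 (0.779, with the block 0.0140), and all 3 were lower in 4 of 4 pairs. Leaving out 1 library in the fit without the block moved these values by over 1.5 times: Pycr1 to -0.44 and Asns to -0.17 without shControl replicate 2, Asns to -0.70 without shAtf4 replicate 3, and Aldh18a1 to -0.10 without shAtf4 replicate 4 and -0.36 without shControl replicate 4.

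Bcat2, Cbs and Got1 passed in neither fit. Bcat2 had a log2 fold change of -0.17 (95% interval -0.40 to 0.07) and was lower in 4 of 4 pairs, Cbs one of -0.17 (-0.71 to 0.38) with 2 of 4 pairs lower, and Got1 one of -0.09 (-0.45 to 0.28) with 3 of 4 pairs lower. Without both replicate 4 libraries, and with no block, Cth, Chac1, Bcat1 and Gpt2 fell (adjusted p from 0.0109 to 0.0397). The Y-linked gene Ddx3y, chosen after its values were seen, averaged 0.979 CPM in shAtf4 and 48.4 CPM in shControl cells, so the knockdown and another difference between these cell populations cannot be told apart.

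**Figure D4:**
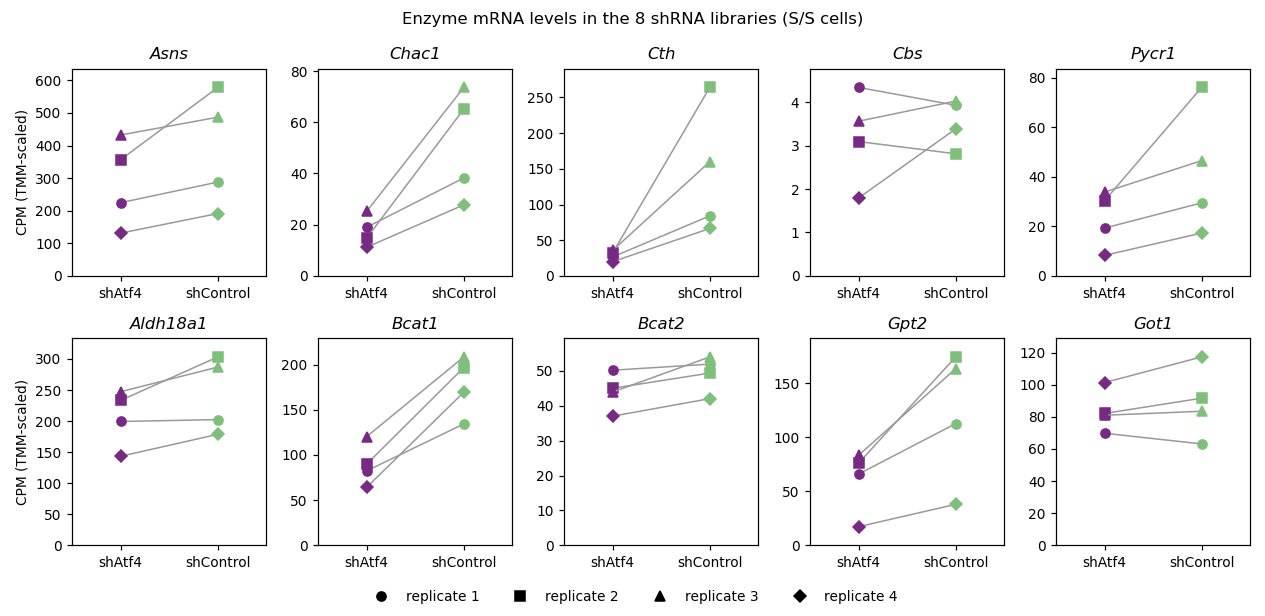
Levels of the 10 enzymes in the 8 shRNA libraries of S/S cells, in CPM after TMM scaling on axes that start at 0; each line joins the shAtf4 (left) and shControl (right) libraries with the same replicate number. All 4 lines are lower on the shAtf4 side for 8 enzymes, the exceptions being Cbs and Got1. Replicate 4 is the lowest library of both groups for Asns, Chac1, Cth, Pycr1, Aldh18a1, Bcat2 and Gpt2, and the highest for Got1.

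Across the 6 group means, on a log2 scale centred within each table and compared over 10513 genes, the non-member genes nearest to Asns included Ddit3, a stress-induced transcription factor (root mean square difference 0.0611), Zfp13 (0.0905), Mthfd2, a mitochondrial folate enzyme (0.0971), and N4bp2 (0.101). For Bcat1 they were Hapln4 (0.183), the stress-induced transcription factor Atf3 (0.224), Arhgap29 (0.227), Snai2, a transcription factor of epithelial-mesenchymal transition (0.237), and Plcd1 (0.244). Among the members, Asns and Cbs were nearest to each other (0.0934), then Aldh18a1 and Got1 (0.103), and Chac1 and Cth (0.266). Gpt2 was the most isolated, at 0.340 from its nearest member, Bcat2. With 6 group means behind each value, these distances describe the pattern and carry no test.

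Neighbouring genes of the same pathways did not share one direction. In A/A against S/S siControl cells 34.7% of all genes tested were lower and 35.6% higher. There, 10 of 15 other proline, ornithine and arginine genes fell and 3 rose (median log2 fold change -0.62). Oat, which links ornithine to the proline pathway, averaged 25.6 ± 3.35 CPM in A/A siControl and 134.6 ± 5.85 CPM in S/S siControl cells (SD, n = 4 each) and fell by 2.40 (SE 0.0626, adjusted p = 3.54e-21). The polyamine enzymes Sat1 and Sms rose by 0.83 and 0.22, but others of the list were lower on average: Odc1 averaged 408 CPM in A/A siControl and 506 CPM in S/S siControl cells, and Srm 49.99 CPM in A/A siControl and 76.9 CPM in S/S siControl cells. Odc1 and Srm were named after their values were seen. In the list of branched-chain amino acid breakdown, the steps after the transaminases, 13 of 23 genes rose and 5 fell (median 0.18). These counts stand beside the same shares of all genes. Acadsb (0.61) and Mccc1 (0.52) were among those that rose and Hibch (-0.38) and Bckdhb (-0.38) among those that fell.

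Of 24 methionine, cysteine and glutathione genes in A/A against S/S siControl cells, 13 rose and 7 fell (median 0.11). Oplah, which returns 5-oxoproline to glutamate, rose by 1.20 and Ahcyl2 by 1.16, whereas Ggct, which like Chac1 acts on glutamyl peptides, fell by 1.63 and glutathione reductase, Gsr, by 0.34. Of 12 tested asparagine, aspartate and glutamate genes 5 rose and 6 fell (median -0.09), among them glutamate dehydrogenase Glud1, up by 0.80, Gfpt1, up by 0.69, the glutaminase Gls2, down by 1.36, and Cad, down by 0.53. Both lists carried calls in each direction, and these shares stand beside the 70.2% of all genes called, 34.7% lower and 35.6% higher.

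Under siChchd10 the branched-chain list had 13 rises and 2 falls of 23 in A/A cells (median 0.13), and 2 rises and 4 falls in S/S cells (median -0.05), with the difference between the genotypes passing for 13 genes, all more positive in A/A cells (median difference 0.21). Of all genes tested, 26.5% rose and 27.2% fell in A/A cells, 15.0% rose and 13.0% fell in S/S cells, and the difference passed for 16.7% in the positive and 18.9% in the negative direction. Pccb, a subunit of propionyl-CoA carboxylase, averaged 14.4 ± 0.847 CPM in A/A siChchd10 and 7.97 ± 0.489 CPM in A/A siControl cells (SD, n = 4 each) and rose by 0.85 (SE 0.0820, adjusted p = 1.04e-09). Bckdha, a subunit of the branched-chain ketoacid dehydrogenase, rose in both genotypes, by 0.62 in A/A and 0.28 in S/S cells, while its partner subunit Bckdhb fell in both, by 0.41 in A/A and 0.46 in S/S cells. In the proline list 10 of 15 rose and 2 fell in A/A cells (median 0.24), against 3 and 4 in S/S cells (median -0.08), beside the same shares of all genes. The difference passed for 11 genes in the positive and 3 in the negative direction (median difference 0.37). Prodh, which breaks proline down, fell by 0.87 in A/A cells, and Pepd, which frees proline from dipeptides, rose by 0.80 there.

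Beside the 53.7% of all genes called in A/A cells, 28.0% in S/S cells and 35.6% for the difference, the methionine, cysteine and glutathione list had 14 rises and 4 falls of 24 under siChchd10 in A/A cells (median 0.18) and 8 rises and 2 falls in S/S cells (median 0.09), and the difference passed for 9 genes in the positive and 5 in the negative direction. Gclc, the catalytic subunit of the first enzyme of glutathione synthesis, rose by 0.34 in S/S cells, and its effect in A/A cells was lower by 0.47 (SE 0.0632, adjusted p = 1.57e-06). The asparagine, aspartate and glutamate list had 6 rises and 5 falls of 12 in A/A cells and 4 and 3 in S/S cells, with Glud1 up in both, by 0.55 in A/A and 0.36 in S/S cells. Between A/A and S/S siChchd10 cells, where 34.7% of all genes rose and 35.8% fell, 15 branched-chain genes rose and 4 fell, 5 and 8 proline genes, 12 and 7 methionine, cysteine and glutathione genes, and 5 and 6 asparagine, aspartate and glutamate genes. Under shAtf4 0 genes of any of the 4 lists passed without the block (DESeq2 called 0 as well), and at an unadjusted p under 0.05 they held 1, 2, 0 and 1 genes in the order of the lists that follows. With the block 3 rose and 1 fell in the asparagine, aspartate and glutamate list, and 2 and 3 in the methionine, cysteine and glutathione list. In the proline list 3 rose and 1 fell, and in the branched-chain list 0 and 3. The lists held 13, 21, 13 and 23 tested genes in that order. Of all 14697 genes tested 0.538% were called without the block and 20.2% with it, 1487 higher and 1482 lower.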

How the data were processed

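The data are 24 RNA-seq libraries. Per the labels' protocols they were made from total RNA taken with Trizol, by a TruSeq stranded total RNA kit, and run on a NovaSeq, although the molecule is labelled polyA RNA. What the authors deposited are raw counts per gene, as whole numbers, in 2 tables, and 0 columns lacked a sample. Per the submitters' processing notes mm10 is named as a build and DESeq2 1.24.0 as a tool. Not given in the sources used here are the aligner, the counter, the annotation and the strand setting. Reads of overlapping genes therefore cannot be told apart by strand. Genes that overlap a member held at most 0.564% of its counts.

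Each table was fitted by itself with edgeR 4.0.16 in R 4.3.3 (filterByExpr, TMM scaling, robust quasi-likelihood test, 1 term per group), with Benjamini-Hochberg adjustment over all genes tested and calls at an adjusted p under 0.05. Levels are counts per 1e+06 (CPM) after TMM. Levels between genes are divided by exon length in GRCm38.p6, as the union of a gene's exons over its GENCODE transcripts. Intervals are the log2 fold change with its 95% normal interval from the SE. Comparisons within the siRNA table share libraries, and the 2 tables were scaled separately, so levels across them are not tested. Libraries of a group differed beyond sampling noise (chi-square per gene of at least 2.85), so none was counted as a duplicate.

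Labels number the libraries of a group 1 to 4. Deviations of same-numbered libraries correlated above 0.1 in 4 of 4 shRNA pairs, so the fit with the number as a block is given beside the shRNA results, and in 5 of 24 siRNA pairs, so it is not used there. Tested on simulated data over 14496 genes of the shRNA table, the procedure recovered 56 of 101 genes changed 2-fold and 14 of 99 changed 1.5-fold. Over 17715 genes of the A/A siChchd10 comparison it recovered 96 of 98 and 94 of 102. The simulated libraries were independent, without the shared deviations of same-numbered libraries, and few genes were changed. These rates therefore need not hold for the real comparisons, and the block fit was not simulated. Alternatives were DESeq2 1.42.0 size factors or test, no filter, the block, leaving out libraries, and fitting only the groups compared. The members, the 4 pathway lists and the marker lists were chosen with earlier results of these data known. All members are named in each comparison, and of each pathway list the text draws on at most the 2 largest rises and 2 largest falls that passed at an average log2 CPM no lower than 1. Some genes these rules select are not reported here.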

Additional observations from a re-analysis of the deposited data

Results flagged for a closer look

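In A/A siChchd10 cells Aldh18a1 was lowest in replicate 4, at 179 CPM, while the other 3 libraries lay between 200 and 201 CPM. In A/A siControl cells Bcat1 was highest in replicate 1, at 13.4 CPM, against 9.58 to 10.1 CPM in the others. Both stood out because the gap to the nearest library took most of the group's range, beyond Dixon's 95% critical value for 4 samples. Of the 60 combinations of member and group examined, 2 met this rule, and chance alone meets it in about 1 of 20. The A/A siControl library is also the one that held RNAs typical of S/S cells, and its part in the Bcat1 level was not tested.

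The siChchd10 effect differed between A/A and S/S cells, by the interaction test, for Asns (A/A minus S/S, 0.45 on the log2 scale), Aldh18a1 (0.40), Bcat1 (0.59), Bcat2 (0.36) and Gpt2 (0.50).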

How the results depend on the processing

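Of 850 member fold changes recomputed under the alternatives, 810 kept their direction and side of the threshold, 30 came to pass, 2 no longer passed and 8, none of them called, changed sign. The shRNA comparison moved most: from 79 genes called to 2969 with the replicate block, 491 with the DESeq2 test, 1726 without both replicate 4 libraries, and 13 (without S/S shAtf4 replicate 2) to 536 (without S/S shControl replicate 4) when 1 library was left out. Members that fell there numbered 0 in the fit as reported, 7 with the block, 3 with the DESeq2 test, 4 without both replicate 4 libraries and 0 to 3 when 1 library was left out. The cause was not tested. Atf4 passed there with all libraries and without S/S shControl replicate 4, and lost its call without any other library (adjusted p from 0.0654 to 0.131).

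The sign changes under shAtf4 were Cbs, 0.0307 without both replicate 4 libraries and -0.338 to 0.0469 with 1 library left out, and Got1, -0.221 to 0.0777 with 1 left out. For siChchd10 in A/A cells they were Asns, -0.0426 to 1.05e-05 with 1 library left out, Chac1, -0.0625 to 0.0911 with 1 left out and 0.00679 with the DESeq2 test, and Cbs, -0.119 to 0.0256 with 1 left out. Members with a more positive siChchd10 effect in A/A cells numbered 5 to 7, with Got1 or Cbs joining under some settings, and members called in the A/A against S/S comparisons stayed at 9 lower and 1 higher with siControl and 6 lower and 1 higher with siChchd10 under every alternative run. The replicate block changed the call of no member in the siRNA comparisons. Of 340 recomputed counts of pathway-list genes 329 stayed within 1.5 times, and the other 11 were under shAtf4. Fitting only the groups compared was not run for the interaction, which needs all groups.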
